A study of Mus musculus with 34 samples.

Results

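Genes of the blood vessel lining and its growth signals were followed through muscle of mice that lack the insulin receptor, the IGF-1 receptor or both. The 10 genes were chosen by name: the endothelial genes Pecam1, Cdh5, Flt1, Kdr, Tek, Tie1, Eng and Nos3, and the ligands Vegfa and Vegfb. All 10 were found by Ensembl identifier among the 46071 genes of the count table. All 10 also passed the filter on low counts, which left 13646 genes for testing, and no member had fewer than 14 counts in any library.

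Endothelial cells line every vessel, and in skeletal muscle most of them lie in the capillaries that run along the fibers. Vascular endothelial growth factor (VEGF) made by the fibers binds receptor tyrosine kinases on these cells and keeps capillaries growing and alive. The receptor Kdr (VEGFR2) carries most of the growth signal. Flt1 (VEGFR1) binds VEGF-A tightly, signals weakly and also exists as a soluble decoy, and it is the receptor of VEGF-B.

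The libraries were made from RNA of powdered quadriceps and gastrocnemius muscle mixed together, from male mice on a mixed C57Bl6/129 background. Mice lacking the insulin receptor (MIRKO, n = 4) were set against floxed mice without Cre (IRlox, n = 3), and mice lacking the IGF-1 receptor (MIGF1RKO, n = 5) against IGFRlox (n = 4). Mice lacking both receptors (MIGIRKO, n = 6) were set against IRIGFRlox (n = 3). Mice lacking both receptors and the transcription factors FoxO1, FoxO3 and FoxO4 (QKO, n = 7) were set against Qlox (n = 2). Cre was driven by Acta1, a promoter of skeletal muscle fibers, in MIRKO, MIGIRKO and QKO; it is not a promoter of endothelial cells. The labels used here do not name the Cre of MIGF1RKO or the ages. Each line was kept as its own colony with floxed littermates as controls, and the Nnt genotype was mixed in most groups but heterozygous in MIGIRKO and IRIGFRlox. Each knockout was therefore compared with the floxed group of its own line.

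Total counts per library ran from 1499025 to 7581198. Insr, the insulin receptor, was at 45.9 ± 3.93 CPM (counts scaled to a common library size, SD, n = 4) in MIRKO against 163 ± 15.1 in IRlox (n = 3). Its log2 change was -1.68 in MIGIRKO and -1.99 in QKO. Foxo1 (-2.98) and Foxo4 (-4.57) fell in QKO. Over the whole gene, Igf1r was at 18.6 ± 3.97 CPM in the libraries labelled MIGIRKO (n = 6) and 18.6 ± 1.94 in IRIGFRlox (n = 3), and Foxo3 was not lower in QKO (0.29 ± 0.27, SE, adjusted p = 0.71, edgeR quasi-likelihood test). Igf1r was lower in QKO (-1.09, adjusted p = 0.0267) and at 9.83 ± 1.41 CPM in MIGF1RKO (n = 5) against 16.5 ± 2.91 in IGFRlox (n = 4), without overlap (-0.75, adjusted p = 0.103). The Igf1r total therefore goes against the label of the MIGIRKO libraries, and the Foxo3 total against that of QKO. Which exons the deletions remove is not stated in the labels. MIGIRKO and QKO below stand for the libraries so labelled. The number after a group name, as in MIRKO 4, follows the order of library numbers within the group and is not in the labels. By correlation of log2 CPM across all tested genes, MIRKO 4 lay nearest to MIGIRKO 3 (r = 0.981) and MIGIRKO 6 nearest to MIRKO 3 (r = 0.973). MIRKO 1 and 3 in turn lay nearest to MIGIRKO 6, and MIGIRKO 1 and 3 nearest to MIRKO 4. QKO 5 lay nearest to Qlox 2 and QKO 6 to MIGIRKO 6. MIRKO 4 and MIGIRKO 6 are called the 2 libraries in doubt here, and every library kept its label. Calls that change without these libraries are given with the result. The tissue showed its defining markers in every library: the summed level of 11 muscle fiber genes was never below 70770 CPM. In whole muscle, fewer endothelial cells and less RNA per endothelial cell cannot be told apart. The p-values measure the spread between these mice only.

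The promoters of the genes whose levels turned out to matter most are shown first, because Flt1 and Vegfa were the members called in a knockout and Kdr and Tek the pair that moved together. Each is the 250 bases before the start of the gene as RefSeq places it in GRCm38.p6, written 5′ to 3′ along the gene. Capitals mark GGAA or its reverse complement TTCC, the core that ETS factors bind; ETS factors are known regulators of endothelial promoters. The coordinates are chr5:147726012-147726261 for Flt1 and chr5:75978456-75978705 for Kdr, both on the minus strand, chr4:94739039-94739288 for Tek on the plus strand, and chr17:46032378-46032627 for the upstream start of Vegfa on the minus strand.
Flt1: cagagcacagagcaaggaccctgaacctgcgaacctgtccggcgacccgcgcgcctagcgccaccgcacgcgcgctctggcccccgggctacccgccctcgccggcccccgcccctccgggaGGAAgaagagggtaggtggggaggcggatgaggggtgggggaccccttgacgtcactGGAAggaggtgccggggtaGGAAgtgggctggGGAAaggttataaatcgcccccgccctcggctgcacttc
Kdr: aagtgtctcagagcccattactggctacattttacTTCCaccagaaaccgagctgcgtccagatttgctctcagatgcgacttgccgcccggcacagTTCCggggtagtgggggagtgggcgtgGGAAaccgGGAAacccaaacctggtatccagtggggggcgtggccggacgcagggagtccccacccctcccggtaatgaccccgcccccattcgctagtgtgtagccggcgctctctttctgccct
Tek: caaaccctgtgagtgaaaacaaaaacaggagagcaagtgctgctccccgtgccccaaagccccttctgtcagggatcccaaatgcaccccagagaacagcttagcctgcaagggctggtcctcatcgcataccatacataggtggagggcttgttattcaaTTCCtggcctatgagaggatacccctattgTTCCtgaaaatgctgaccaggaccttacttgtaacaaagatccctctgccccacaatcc
Vegfa: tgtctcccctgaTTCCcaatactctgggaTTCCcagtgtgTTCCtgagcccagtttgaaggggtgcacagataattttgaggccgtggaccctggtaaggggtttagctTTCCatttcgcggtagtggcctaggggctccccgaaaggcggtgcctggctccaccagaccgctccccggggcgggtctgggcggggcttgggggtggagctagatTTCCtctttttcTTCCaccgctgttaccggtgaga

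Flt1 and Kdr held 4 matches each, Tek 2 and Vegfa 6. Tie1 held 7, Eng 3 and Vegfb 1. Of all 32851 promoters of this length 93.4% held at least 1 match, with a median of 3, and 18.0% held 5 or more, so a count of 4 is common. GC content was 70.4% in Flt1, 61.6% in Kdr, 51.2% in Tek and 59.2% in Vegfa. The hypoxia response core ACGTG was in none of the printed sequences, whereas the internal start of Vegfa held 1; 16.6% of all promoters hold it on either strand. The FoxO core GTAAACA, searched on both strands, was in 0 of the 8 promoters matched, against 3.17% of all promoters. RefSeq promoters were matched for 7 of the 10 genes.

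Levels of different genes were compared per kilobase of exon (RPKM, on the annotated exon union), since long genes collect more reads. In the 12 floxed libraries Vegfa stood at 64.3 ± 10.8 RPKM (SD, n = 12) and Vegfb at 58.7 ± 15.4, which differed by less than their spread. Cdh5, the VE-cadherin of endothelial junctions, followed at 34.8 ± 5.01. Eng, the endoglin co-receptor for BMP9, stood at 13.2 ± 3.89. Tie1, an orphan receptor that tunes Tek, stood at 12.6 ± 1.98. Flt1 was at 10.3 ± 1.30 and Pecam1, the CD31 adhesion molecule, at 9.83 ± 1.61. Tek, the angiopoietin receptor, was at 8.48 ± 1.08 and Kdr at 6.96 ± 2.12. The lowest was Nos3, the endothelial nitric oxide synthase, at 2.90 ± 0.985. From Eng down to Kdr the ranges of neighbours in this order overlapped. The means of Eng and Tie1, and of Flt1 and Pecam1, differed by less than either SD, whereas Tie1 exceeded Flt1 by more than either. Pecam1 and Tek, and Tek and Kdr, differed by less than the larger SD only. Nos3 was read on 14 to 111 counts per library. The spread between floxed libraries in CPM was 12.6% of the mean for Flt1 and 34.0% for Nos3.

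By GRCm38 annotation Kdr lies at chromosome 5, 75932827 to 75978458, and Nos3 on the same chromosome at 24364810 to 24384474. Tek (94739289 to 94874976) and Tie1 (118471191 to 118490061) are both on chromosome 4. Pecam1 is on chromosome 11 (106654217 to 106750628), Cdh5 on chromosome 8 (104101625 to 104144511), Eng on chromosome 2 (32646595 to 32682669) and Vegfb on chromosome 19 (6982473 to 6987651).

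Pecam1 was the steadiest member over all 34 libraries, with a highest to lowest CPM ratio of 1.70, and Nos3 the least steady at 4.43. Pecam1 was at 77.2, 76.5 and 62.8 CPM in IRlox and 70.3, 68.2, 58.1 and 57.1 in MIRKO. It was at 54.0, 53.0 and 67.6 CPM in IRIGFRlox and 53.3 to 68.0 (median 63.5) in MIGIRKO, and both pairs of groups overlapped. Tek was at 34.5, 31.6 and 46.6 CPM in IRIGFRlox and 30.5 to 44.8 (median 40.6) in MIGIRKO, again overlapping. Eng was at 60.9, 56.1 and 44.5 CPM in IRIGFRlox and 48.3 to 64.5 (median 57.9) in MIGIRKO. Vegfb was at 93.1, 138 and 101 CPM in IRIGFRlox and 56.8 to 116 (median 73.2) in MIGIRKO. Knockout and control libraries overlapped for all 4 of these members.

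**Figure D1:**
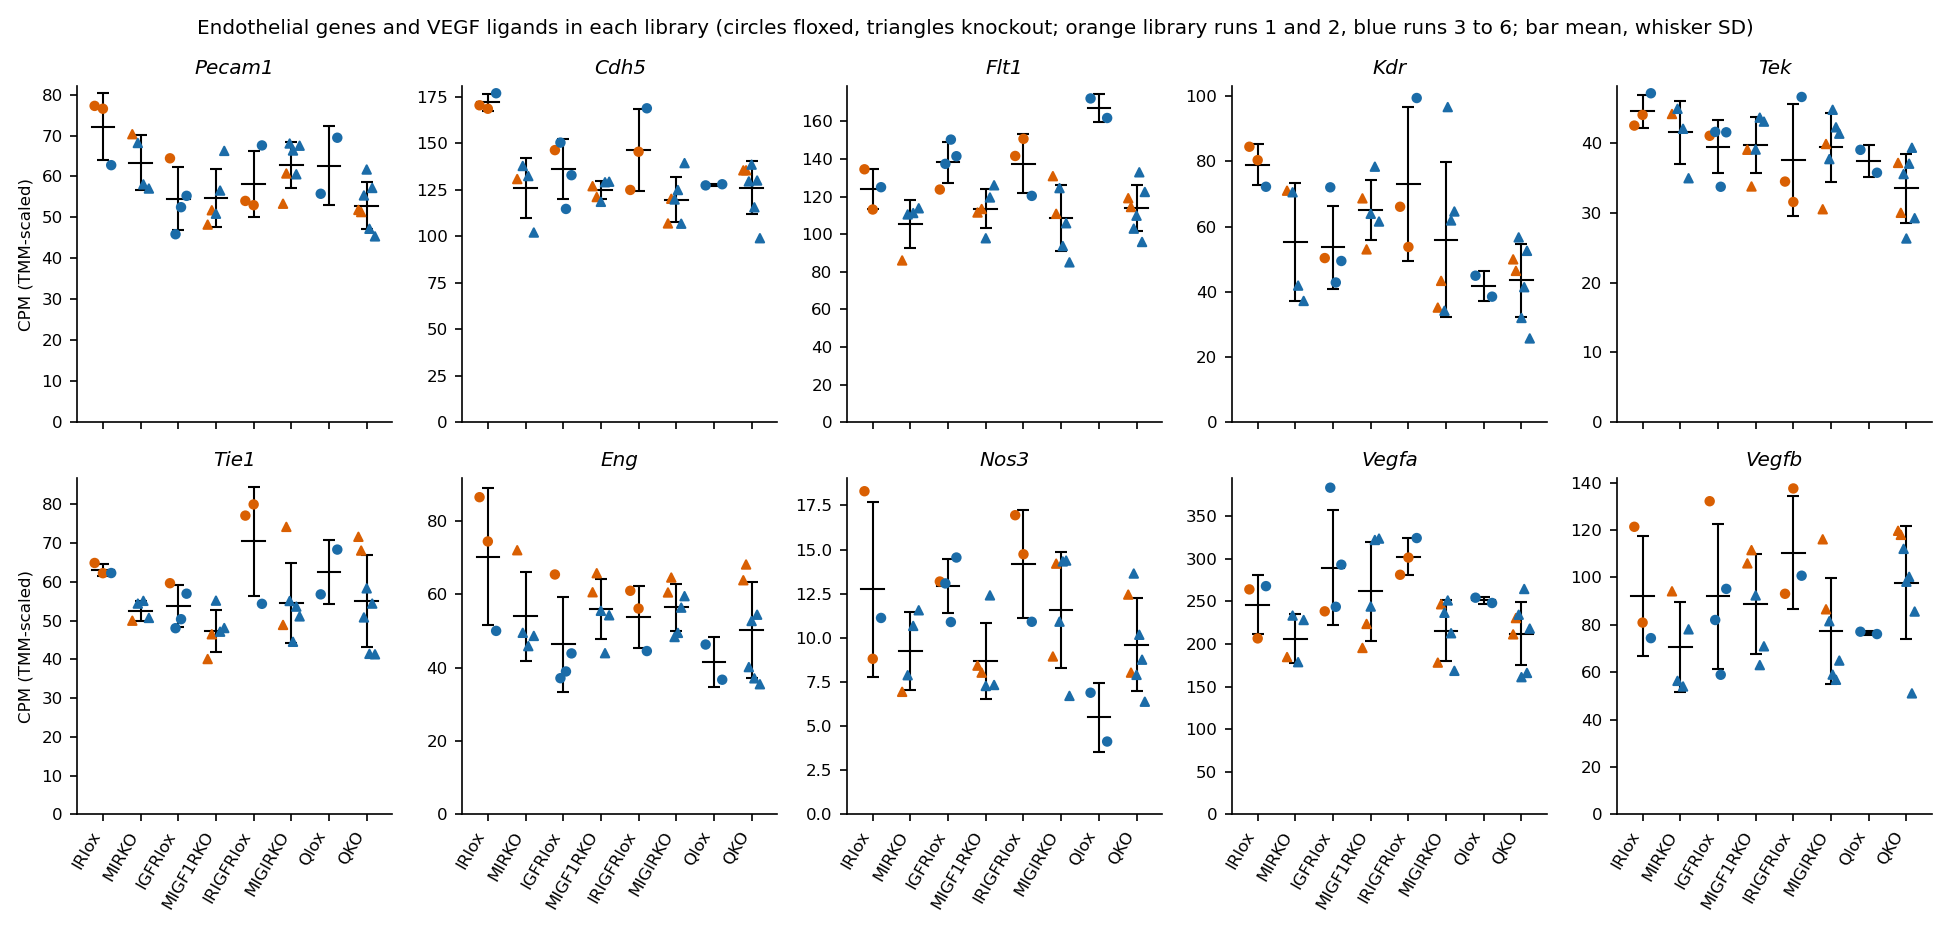
Level in CPM (vertical axis) of the 10 genes, 1 panel a gene, in 34 libraries by genotype group (horizontal axis). Circles are floxed and triangles knockout libraries, orange marks library runs 1 and 2 and blue runs 3 to 6; bars are means and whiskers SD. Vegfa in the libraries labelled MIGIRKO (168 to 251 CPM) lies under all 3 of IRIGFRlox (281 to 324), and Eng and Vegfb sit higher in the orange libraries.

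Loss of both receptors gave the highest share of called genes of the 4 comparisons. Vegfa and Flt1 were lower in the muscle labelled MIGIRKO than in IRIGFRlox, by 1.40-fold and 1.27-fold, whereas Pecam1, Tek and Eng had estimates near 0. The Igf1r total was not lower in these libraries, so these directions are those of the libraries so labelled. Of the 10 members 2 passed the test, both lower, where 33.7% of all tested genes were called and 16.7% were called lower, so the count of members is below the background. The median log2 change of the 10 was -0.32 and 7 of 10 were below 0, against 47.7% of all genes. By unadjusted p below 0.05 there were 4, against 44.1% of all genes. Only Vegfa had groups without overlap, against 29.9% of all genes.

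Vegfa (ENSMUSG00000023951; chromosome 17, 46016993 to 46032369, GRCm38), the main VEGF ligand, was at 281, 301 and 324 CPM in IRIGFRlox. In MIGIRKO its lowest value was 168, its median 225 and its highest 251 CPM (n = 6). Every MIGIRKO library lay below every control library. The log2 change was -0.49 ± 0.17 (SE, 95% interval -0.84 to -0.14, adjusted p = 0.0276, edgeR quasi-likelihood test with Benjamini-Hochberg adjustment). In the 3 runs of consecutive library numbers that held both groups the change was -0.66, -0.29 and -0.94, 1 library against 1. The -0.94 rests on MIGIRKO 6, 1 of the 2 libraries in doubt. With the run as a block and MIGIRKO 6 kept, the Vegfa change was -0.57 (adjusted p = 0.00645, edgeR). With the 2 libraries in doubt left out it was -0.43 (adjusted p = 0.0572), so the call is lost while the direction stays. The call was also lost without MIGIRKO 1 (adjusted p = 0.0548), MIGIRKO 6 (0.058), IRIGFRlox 2 (0.0665) or IRIGFRlox 3 (0.104).

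Flt1 (ENSMUSG00000029648; chromosome 5, 147561604 to 147726011) was at 142, 151 and 120 CPM in IRIGFRlox. In MIGIRKO the lowest value was 85.0, the median 108 and the highest 131 CPM. The groups overlapped: 2 of the 6 MIGIRKO libraries, at 131 and 125 CPM, lay above the lowest control. The change was -0.34 ± 0.13 (SE, adjusted p = 0.034, edgeR). The call was lost with the 2 libraries in doubt left out (-0.28, adjusted p = 0.0764), in the fit of the compared groups alone (0.0961) and with no filter (0.0843). It was also lost without IRIGFRlox 1 (0.108), IRIGFRlox 2 (0.163), MIGIRKO 4 (0.0719), MIGIRKO 5 (0.0539) or MIGIRKO 6 (0.077).

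Both calls depend on the scaling. The trimmed-mean (TMM) factor averaged 1.234 in MIGIRKO, so scaling to library totals without it moves the median change of all genes from 0.04 to 0.53 on the log2 scale. On library totals Vegfa changed by 0.01 (adjusted p = 0.969) and Flt1 by 0.15 (adjusted p = 0.36). On that scale Pecam1 (0.60), Tek (0.57) and Eng (0.56) were called higher, against an all-gene median of 0.53. Vegfa and Flt1 lay below the median gene on both scalings. The ratio of Cdh5 to Pecam1 counts needs no scaling: it was 1.76 to 2.06 in MIGIRKO and 2.31 to 2.74 in IRIGFRlox, without overlap. In Qlox, another floxed group, this ratio was 1.84 to 2.28. Of single genes 29.9% did not overlap in this comparison, and the share over pairs of genes was not measured. Flt1 as a ratio to the other 7 endothelial genes overlapped, at 1.78 to 3.28 in MIGIRKO and 2.22 to 2.97 in IRIGFRlox, as did Flt1 to Pecam1 (1.26 to 2.45 against 1.78 to 2.84). The Vegfa to Vegfb ratio also overlapped (1.53 to 4.26 against 2.19 to 3.22). So did Kdr to Pecam1 (0.502 to 1.46 against 1.01 to 1.47) and Flt1 to Kdr (0.969 to 3.72 against 1.21 to 2.80).

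The junction gene Cdh5 (ENSMUSG00000031871; 125, 145 and 169 CPM in IRIGFRlox; lowest 107, median 120 and highest 139 in MIGIRKO) missed the threshold. Its change was -0.29 ± 0.12 (SE, adjusted p = 0.0548, edgeR), and with the 2 libraries in doubt left out it was -0.34 (adjusted p = 0.0199). Set against all 12 floxed libraries it also passed (adjusted p = 0.0116), in a setting that called 6218 of the 13646 tested genes. Cdh5 overlaps the antisense gene Gm29682, and the strand setting of the counting is not stated, so its reads are not certain to be its own. Tie1 ran from 44.5 to 74.2 CPM in MIGIRKO against 77.1, 80.0 and 54.3 in IRIGFRlox (-0.37 ± 0.16, adjusted p = 0.0634), and passed the test without MIGIRKO 2 or IRIGFRlox 3 (adjusted p = 0.0138 and 0.0219). Kdr was the most uneven: 66.1, 53.8 and 99.5 CPM in IRIGFRlox, and 34.2 to 96.7 in MIGIRKO (-0.38 ± 0.27, adjusted p = 0.277). Vegfb, the VEGFR1-specific ligand, was at -0.51 ± 0.25 (adjusted p = 0.114), and passed without MIGIRKO 1 (0.0377).

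Pecam1 (0.11 ± 0.13, adjusted p = 0.536), Tek (0.07, adjusted p = 0.719) and Eng (0.07, adjusted p = 0.83) lay near 0, and Nos3 was at -0.30 ± 0.25 (adjusted p = 0.363). The 8 endothelial genes together summed to 576 to 613 CPM in IRIGFRlox and 475 to 535 in MIGIRKO. The 2 ligands summed to 374 to 439 and 233 to 333. Both sums rest on the TMM factor, which averaged 0.876 in IRIGFRlox and 1.234 in MIGIRKO, and were not taken on library totals. The sum of the 26 other endothelial markers overlapped, at 1231 to 1307 CPM in IRIGFRlox and 1103 to 1264 in MIGIRKO. Eng overlaps Fpgs and Nos3 overlaps Atg9b and Gm15587, so both are uncertain in the same way as Cdh5.

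**Figure D2:**
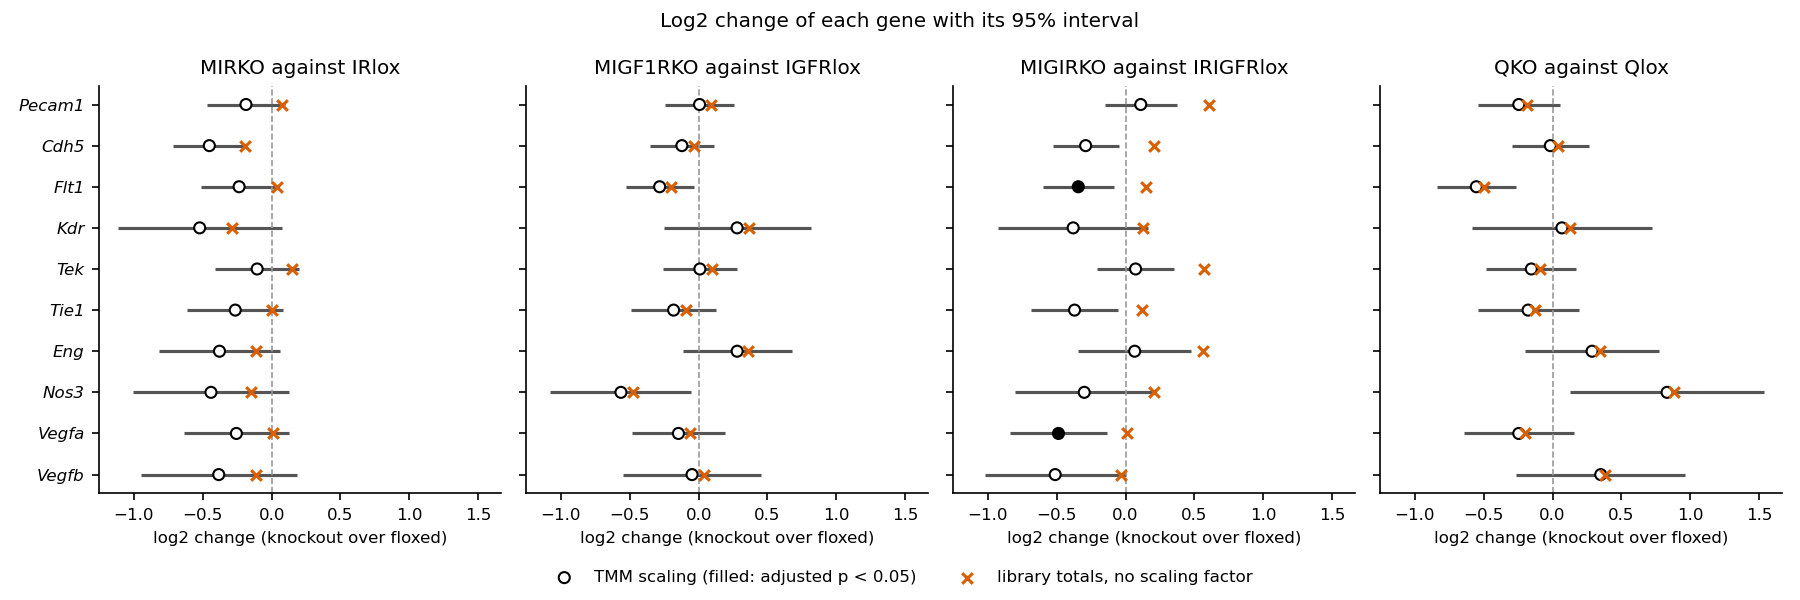
Log2 change of each gene against its floxed control in the 4 knockouts (horizontal axis) with 95% intervals from edgeR. Filled points have adjusted p below 0.05 and orange crosses are the change on library totals without a scaling factor; Flt1 and Vegfa in MIGIRKO are filled at -0.34 and -0.49, with crosses at 0.15 and 0.01.

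Loss of the insulin receptor alone left all 10 members with an estimate below 0, but no member was called by edgeR, at a background of 1.25% of tested genes; limma also called 0 and DESeq2 called 1. The median log2 change of the members was -0.32, against 0.03 for all genes, of which 46.8% were below 0. By unadjusted p below 0.05 there was 1, Cdh5, against 17.2% of all genes. The groups did not overlap for 3 of 10 members (Cdh5, Kdr and Tie1), against 16.1% of all genes.

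Cdh5 was at 170, 169 and 177 CPM in IRlox and 131, 138, 132 and 102 CPM in MIRKO. Every MIRKO library was below every control. The change was -0.45 ± 0.13 (SE, adjusted p = 0.067, edgeR), and it was called by DESeq2 (adjusted p = 0.0261) and without MIRKO 2 (adjusted p = 0.0426). In the only run holding both groups it was -0.37.

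Kdr was at 84.5, 80.4 and 72.2 CPM in IRlox and 71.0, 70.5, 41.9 and 37.2 CPM in MIRKO. The MIRKO libraries fell into a higher and a lower pair, and the change was -0.52 ± 0.29 (adjusted p = 0.355). Tie1 was at 64.9, 62.2 and 62.3 CPM in IRlox and 49.97, 54.4, 55.1 and 50.7 CPM in MIRKO, with a change of -0.26 ± 0.17 (adjusted p = 0.435). Flt1 (135, 113 and 125 CPM in IRlox; 86.1, 111, 111 and 114 in MIRKO) was at -0.24 ± 0.14 (adjusted p = 0.377) and its groups overlapped.

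Vegfa was at 264, 207 and 268 CPM in IRlox and 185, 233, 179 and 228 CPM in MIRKO, overlapping, with a change of -0.26 ± 0.19 (adjusted p = 0.495). Nos3 (-0.44), Vegfb (-0.38), Eng (-0.38), Pecam1 (-0.19) and Tek (-0.11) had adjusted p-values from 0.365 to 0.755. The direction of several rests on the scaling, because library totals move the median gene to 0.30: there Flt1 was at 0.04, Pecam1 at 0.07, Tek at 0.15 and Vegfa at 0.01, and Cdh5 stayed below 0 at -0.20. Set against all 12 floxed libraries, Flt1 (-0.40, adjusted p = 0.0114) and Vegfa (-0.42, adjusted p = 0.0399) were called in MIRKO.

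Loss of the IGF-1 receptor alone left no member past the threshold by edgeR, DESeq2 or limma, at a background of 0.616% by edgeR. Of the 10, 6 were below 0, against 50% of all genes. The median was -0.08, and no member had groups without overlap (5.14% of all genes did). By unadjusted p below 0.05 there were 2, Nos3 and Flt1, against 10.5% of genes. Nos3 was at 13.2, 13.1, 10.9 and 14.5 CPM in IGFRlox and 8.42, 8.03, 7.27, 12.4 and 7.33 CPM in MIGF1RKO. Only MIGF1RKO 4 lay inside the control range. The change was -0.56 ± 0.25 (SE, adjusted p = 0.406, edgeR).

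Flt1 was at 124, 137, 150 and 142 CPM in IGFRlox and 112, 113, 97.9, 120 and 126 CPM in MIGF1RKO, with 1 knockout library above the lowest control. The change was -0.28 ± 0.12 (adjusted p = 0.382), and within the 3 runs holding both groups it was -0.15, -0.20 and -0.25. Kdr (50.4, 72.1, 42.9 and 49.5 CPM in IGFRlox; 68.7, 53.0, 63.9, 78.4 and 61.6 in MIGF1RKO) pointed the other way at 0.28 ± 0.26 (adjusted p = 0.81), and was higher in 3 of 3 runs. Vegfa had a wide spread in both groups, 238, 383, 244 and 293 CPM against 195, 223, 244, 322 and 324, and the change was -0.15.

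When the FoxO factors were removed along with both receptors, no member was called by edgeR or limma, at a background of 0.506% by edgeR, and DESeq2 called 1. The median change was -0.09 with 6 of 10 below 0, against 45.6% of all genes. By unadjusted p below 0.05 there were 2, against 11.6% of all genes, and the single member without overlap was Flt1 (9.77% of all genes). Flt1 was at 172 and 162 CPM in Qlox, and its lowest value in QKO was 95.9, its median 114 and its highest 133 CPM (n = 7). All 7 QKO libraries lay below both controls. The change was -0.55 ± 0.14 (SE, adjusted p = 0.0634, edgeR), which missed the threshold; it passed by DESeq2 (adjusted p = 0.0216) and without QKO 5 (edgeR, adjusted p = 0.0435), and without QKO 5 and QKO 6 it was -0.55 (adjusted p = 0.0833). Within the 2 runs holding both groups it was -0.37 and -0.76. Relative to the other 7 endothelial genes, as a ratio of counts, Flt1 in Qlox was 4.11 to 4.20 and in QKO 2.11 to 3.88, without overlap. The ratio of Flt1 to Pecam1 overlapped, at 2.33 to 3.09 in Qlox and 1.68 to 2.82 in QKO. So did that of Flt1 to Kdr, at 3.83 to 4.20 and 1.82 to 4.77.

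Nos3 went the other way, with 6.89 and 4.13 CPM in Qlox and 6.38 to 13.6 CPM (median 8.76) in QKO. The groups overlapped by 1 Qlox library, and the change was 0.83 ± 0.35 (adjusted p = 0.358). Against all 12 floxed libraries it was -0.32, so its direction depends on the 2 Qlox libraries. Vegfa was at 254 and 248 CPM in Qlox and 161 to 264 CPM (median 218) in QKO (-0.25 ± 0.20, adjusted p = 0.655). Against Qlox, Cdh5 (-0.02) and Kdr (0.07) lay near 0. Kdr averaged 41.7 CPM in Qlox, against 53.7 in IGFRlox, 73.1 in IRIGFRlox and 79.0 in IRlox. Against all 12 floxed libraries Kdr was at -0.53 and not called, so its estimate also depends on the 2 Qlox libraries. Set against all 12 floxed libraries, Flt1 (-0.29, adjusted p = 0.0428, edgeR) and Vegfa (-0.38, adjusted p = 0.0436) were called. That setting called 1084 of the 13646 tested genes.

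Flt1 thus had an estimate of -0.24 in MIRKO, -0.28 in MIGF1RKO, -0.34 in MIGIRKO and -0.55 in QKO, each against its own floxed group. Differences between these changes were tested directly. No member's change was called different between MIGIRKO and MIRKO (0% of all genes called; 10.4% had an unadjusted p below 0.05, and 0 members did). With the 2 libraries in doubt left out this comparison called 460 genes, without MIRKO 4 alone 144, without MIGIRKO 6 alone 13 and by DESeq2 39, and 0 members in each. None was between MIGIRKO and MIGF1RKO, where 8.58% of genes were; 0 members and 26% of genes had an unadjusted p below 0.05. None was between QKO and MIGIRKO, where 5.76% were. By unadjusted p there were 2 against 21.2% of genes, Nos3 (1.13 ± 0.42, adjusted p = 0.109) and Vegfb (0.86 ± 0.40, adjusted p = 0.202). DESeq2 and limma also called 0 members in these 3 differences. On library totals Flt1 (-0.64, adjusted p = 0.0337) and Pecam1 (-0.79, adjusted p = 0.0165) were called in the last, where the median gene lay at -0.41. Among the 4 floxed groups themselves no member was called (0.264% of genes), although 4 of 10 had an unadjusted p below 0.05 against 11.2% of genes: Nos3, Eng, Cdh5 and Pecam1, with adjusted p from 0.223 to 0.431.

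Once group means were removed, some members rose and fell together from mouse to mouse. Over the 34 libraries Kdr and Tek, the VEGF and angiopoietin receptors, gave Pearson r = 0.754 and Spearman rho = 0.759. The permutation p within groups was 1e-05, the smallest these permutations can give, and 0.00045 after adjustment over 45 pairs; r was 0.747 without the 2 libraries farthest from the median. Flt1 and Kdr, both VEGF receptors, went opposite ways (r = -0.61, permutation adjusted p = 0.0453; rho = -0.589, adjusted p = 0.0547; r without 2 libraries -0.581). Cdh5 with Kdr (0.567), Tie1 with Eng (0.55) and Pecam1 with Cdh5 (0.514) passed for r but not for rho (permutation adjusted p = 0.0585, 0.0762 and 0.0585). With library runs 1 to 2 pooled (n = 12) and 3 to 6 pooled (n = 22), r was 0.769 and 0.766 for Kdr with Tek. It was -0.669 and -0.595 for Flt1 with Kdr. It was 0.561 and 0.572 for Cdh5 with Kdr and 0.522 and 0.518 for Pecam1 with Cdh5. For Tie1 with Eng it was lower, 0.326 and 0.485, and both had higher medians in runs 1 to 2 (Tie1 63.5 against 54.0 CPM, Eng 64.9 against 47.3). The ratio of Flt1 to Kdr counts ran from 0.969 to 4.77 over the libraries. Over the 28 pairs of endothelial genes the median r was 0.167 and 18 were above 0. The points share the library, its depth and its scaling, and what part these have in the correlations was not tested.

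**Figure D3:**
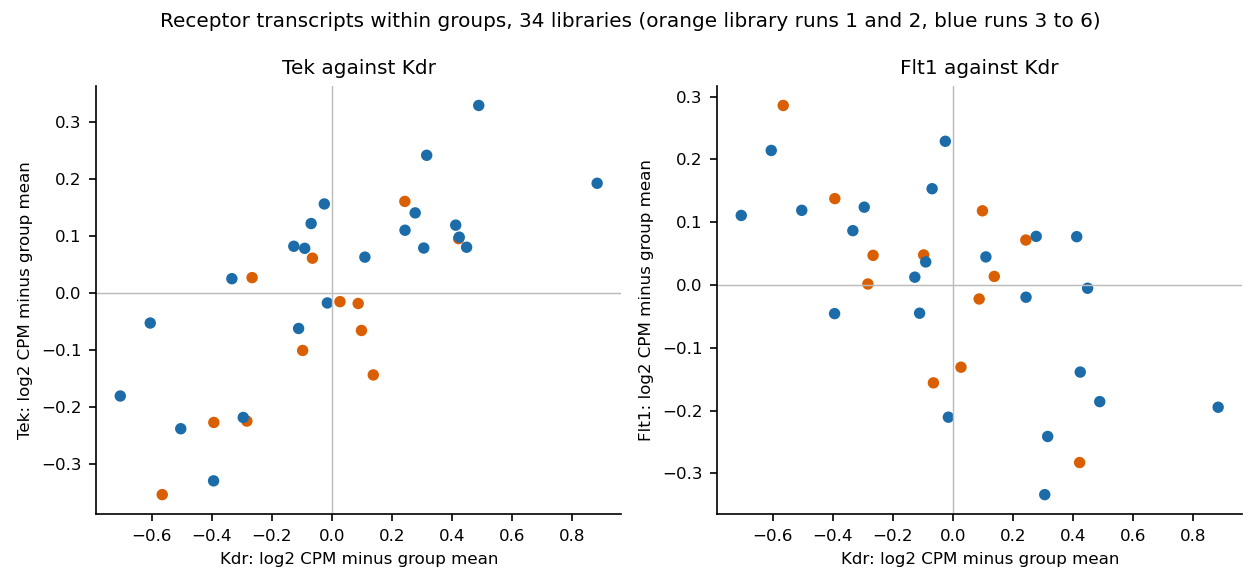
Log2 CPM with the group mean removed in 34 libraries, Tek against Kdr and Flt1 against Kdr. Tek rises with Kdr (r = 0.754) and Flt1 falls as Kdr rises (r = -0.61).

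Vegfb moved with the balance of short and long genes in a library. The index used is the mean log2 CPM of 1946 tested genes with under 2000 exon bases less that of 5837 genes with over 5000. Vegfb, with 1605 exon bases the shortest member, followed it at r = 0.805 and rho = 0.826 over 34 libraries (permutation p = 1e-05, the smallest possible, and 0.0001 after adjustment over 10 members). Without IGFRlox 3 and QKO 6 r was 0.767. With library runs 1 to 2 pooled r was 0.667 (n = 12), and with runs 3 to 6 pooled it was 0.713 (n = 22). These pools still hold differences between runs. The index was negative in every library of runs 4 and 5 and positive in every library of runs 3 and 6. Mean Vegfb was 73.0 and 61.3 CPM in runs 4 and 5, against 91.7 and 84.9 in runs 3 and 6. The relation inside single runs was not tested, and the permutations moved libraries freely across runs. Vegfb is itself among the 1946 short genes of the index. How closely other short genes follow the index was not measured, so the relation is not shown to be particular to Vegfb. For Vegfa r was -0.261 (permutation adjusted p = 0.275). Eng gave r = 0.50 (permutation adjusted p = 0.014) but -0.25 and 0.103 within the same pools, so the relation does not hold within them. Tek gave r = -0.427 (permutation adjusted p = 0.0393).

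Eng and Vegfb were higher in the first 2 runs. Eng was 56.1 to 86.4 CPM there (median 64.9, n = 12) against 35.4 to 59.4 (median 47.3, n = 22) in the rest, and Vegfb 81.0 to 138 against 51.1 to 112. With runs as a block the Vegfb change moved from -0.38 to 0.01 in MIRKO and from 0.35 to -0.11 in QKO. The runs are stretches of consecutive library numbers in the labels, and what they stand for is not given.

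**Figure D4:**
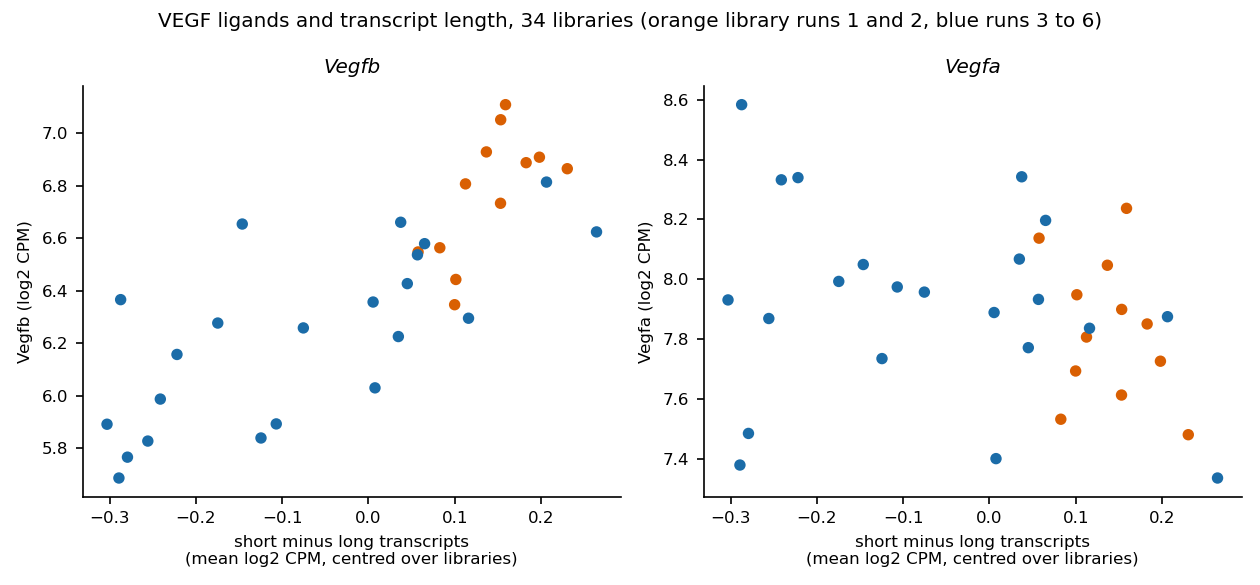
Log2 CPM of Vegfb and Vegfa (vertical axis) against the difference in mean log2 CPM between short and long genes (horizontal axis) in 34 libraries. Vegfb rises with the index (r = 0.805), and r is -0.261 for Vegfa.

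The genes whose levels ran most like the members over the 34 libraries, by Pearson r of log2 CPM and with no test, differed by member. For the mean of the 8 endothelial genes they were Kif26a (0.738), Adcy4 (0.719), Sept4 (0.714), Chst7 (0.694), Pdzd2 (0.692) and Trib2 (0.684). For Vegfa they were Dnajc18 (0.817), Timm22 (0.809), 3425401B19Rik (0.805), Nsmaf (0.788), Chd2 (0.784) and Lmtk2 (0.783). For Vegfb they were Atp5d (0.910), Prdx5 (0.899), Ndufs7 (0.886), Glrx5 (0.886), Ndufb8 (0.875) and Arl2 (0.870). Those of Vegfb have 1718 to 3682 exon bases, against a median of 4434 over tested genes.

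The wider vascular gene lists were read in the same tests. In MIGIRKO, where 17% of all tested genes were called higher and 16.7% lower, 1 of 26 other endothelial markers rose, 2 fell and 23 did not pass the test, with a median of -0.04. Cd34, a sialomucin shared with stem and stromal cells, rose by 0.59 (adjusted p = 0.0042, edgeR) and Ptprb, the phosphatase VE-PTP that restrains Tek, fell by 0.49 (adjusted p = 0.0052). Aqp1, a water channel of capillaries, was at -0.49 (adjusted p = 0.0256) and lost its call with the 2 libraries in doubt left out (adjusted p = 0.0514). Ptprb was at 0.00 and Aqp1 at 0.00 on library totals.

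Of 12 arterial and venous genes 2 rose (Ackr1 by 1.05, Selp by 1.70) and 1 fell (Dll4 by 0.65). Ackr1 and Selp mark venules and Dll4 is the Notch ligand of tip and arterial cells. Of 12 further VEGF, angiopoietin and co-receptor genes 3 rose: Sema3f (1.12, adjusted p = 0.00075), a guidance ligand, Plxnd1 (0.49, adjusted p = 0.0117), its family's vascular receptor, and Vegfd (0.67, adjusted p = 0.0354). Flt4, the lymphatic VEGF receptor, was lower at -0.47 (adjusted p = 0.0499) and lost the call with the same libraries left out (0.105). Of 12 Notch and BMP genes 2 rose (Id3 and Klf4) and 1 fell (Jag2).

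Among 13 tested regulators of Vegfa and hypoxia targets, 1 rose and 3 fell. Egln3, a hypoxia-induced prolyl hydroxylase, rose by 1.46 (adjusted p = 7.13e-05). Egln1, the main HIF prolyl hydroxylase, fell by 0.91 (adjusted p = 3.14e-06), Esrra, a nuclear receptor known to raise Vegfa, fell by 1.03 (adjusted p = 9.26e-05), and Car9, a HIF target, fell by 1.44, from 2.89 to 1.04 CPM. These 4 kept direction and call on library totals. Hif1a was at 0.69 (adjusted p = 0.063), Epas1 at -0.44 (adjusted p = 0.066) and Ppargc1a at 0.00. Of 11 pericyte and smooth muscle genes 3 rose (Acta2, Tagln and Cspg4, by 0.76, 0.70 and 0.58) and 2 fell, Abcc9 by 0.67 (adjusted p = 0.000447) and Kcnj8. Of 4 tested lymphatic markers 3 rose, Prox1 by 1.39, Lyve1 by 1.18 and Reln by 0.80, while Pdpn and Ccl21a were at 0 in all 34 libraries. The lymphatic sum was 20.0 to 25.6 CPM in IRIGFRlox and 36.3 to 59.2 in MIGIRKO, and 28.8 to 56.3 in the other 3 floxed groups. With all 12 floxed libraries as control Lyve1 (adjusted p = 0.422) and Reln (0.351) lost their calls.

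**Figure D5:**
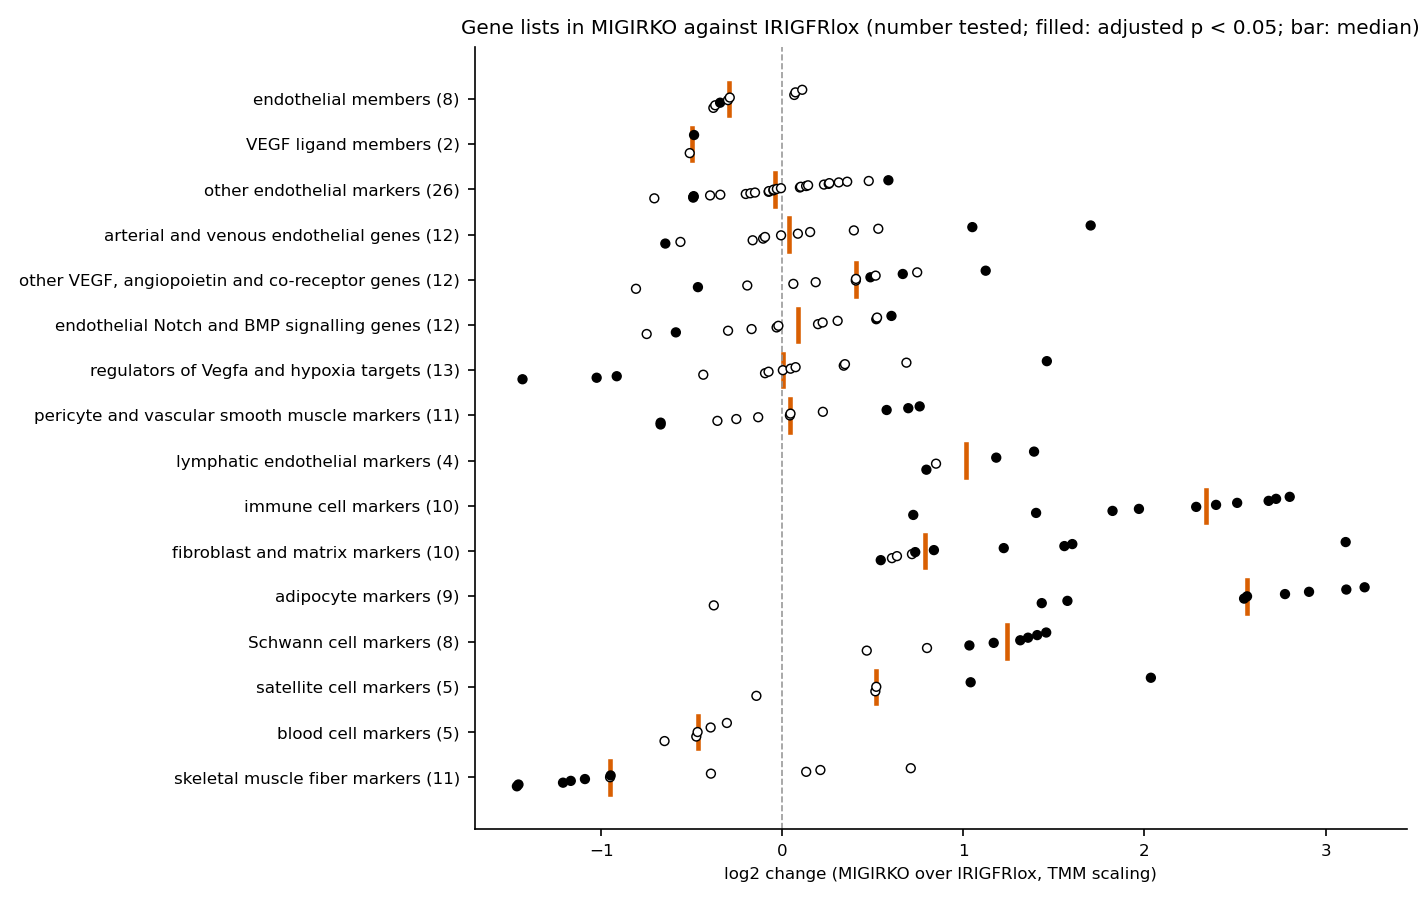
Log2 change in MIGIRKO against IRIGFRlox of every tested gene of 16 lists (horizontal axis, 1 row a list). Filled points have adjusted p below 0.05 and orange bars are medians; the other endothelial list centres at -0.04 and the immune list at 2.34.

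In MIGIRKO edgeR called 25 of the 90 genes of these vascular lists, where 33.7% of all tested genes were called. By unadjusted p below 0.05 it was 34.4% of the 90, against 44.1% of all genes, so neither share exceeds the background. Of the 25 called, 24 were followed through the other settings, all but Kcnj8. Of these, 10 kept direction and call in all 10 other settings: Cd34, Ackr1, Sema3f, Id3, Egln1, Egln3, Esrra, Car9, Acta2 and Prox1. With the 2 libraries in doubt left out, Selp, Dll4, Klf4 and Jag2 also lost their calls (adjusted p = 0.0662, 0.0809, 0.0579 and 0.0612). On library totals Dll4 (-0.16), Jag2 (-0.10) and Abcc9 (-0.18) lost theirs. With all 12 floxed libraries as control Tagln (adjusted p = 0.397) and Jag2 (0.169) lost theirs.

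In the other 3 knockouts edgeR called 0 of the 90 genes of these vascular lists; 17 (18.9%) had an unadjusted p below 0.05 in MIRKO, 15 (16.7%) in MIGF1RKO and 11 (12.2%) in QKO. The shares of all tested genes were 17.2%, 10.5% and 11.6%, so those of MIRKO and QKO are near the background. The genes with the smallest adjusted p among other endothelial markers were Robo4 in MIRKO (-0.59, adjusted p = 0.113), Ramp2 in MIGF1RKO (-0.77, adjusted p = 0.0933) and Cldn5 in QKO (1.11, adjusted p = 0.318). In MIRKO 22 of the 26 were below 0, with a median of -0.24, in MIGF1RKO 17 (median -0.15) and in QKO 18 (median -0.10). Of all tested genes 46.8%, 50% and 45.6% were below 0 in these comparisons, all under TMM scaling.

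Markers of other cells also changed in MIGIRKO, where 2 of the 10 members were called. All 10 immune markers rose (median 2.34). Their summed level was 161 to 228 CPM in IRIGFRlox, 217 to 368 in the other floxed groups and 478 to 1418 in MIGIRKO. Of 9 adipocyte markers 8 rose, of 10 fibroblast markers 7 and of 8 Schwann cell markers 6, and 6 of 11 muscle fiber markers fell. Of all tested genes 17% were called higher and 16.7% lower. The fiber genes summed to 187043 to 205333 CPM in IRIGFRlox and 70770 to 113501 in MIGIRKO. Cell number and RNA per cell cannot be told apart for these markers either. The part these marker changes have in the Vegfa and Flt1 changes was not tested. In MIRKO the immune sum was 491 to 1193 CPM against 290 to 368 in IRlox, and the fiber sum 93328 to 153317 against 167533 to 191494.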

How the data were processed

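A directional library kit was used, per the labels. The authors aligned with STAR and counted with featureCounts on GRCm38.p4, per the submitters' processing notes; versions and strand setting are not given in the sources used here. The deposited values are raw counts per gene. Symbols (45229 of 46071 identifiers), exon lengths and coordinates come from GENCODE M21 (GRCm38). Counts were tested with edgeR 4.0.16 (quasi-likelihood, robust, TMM, all 34 libraries, 1 mean per group, filterByExpr, Benjamini-Hochberg adjusted p below 0.05 called; R 4.3.3). CPM use TMM-scaled totals, and log2 CPM a prior count of 2. No blank or total rows were present. Alternatives were limma 3.58.1 (voom), DESeq2 1.42.0, other scalings and filters, library runs as a block, the compared groups only, all 12 floxed libraries as control and left-out libraries. The fit was checked on simulated data. The members and lists were chosen with earlier results of these data known. Named were all members, the targeted genes, up to 4 called genes a list (otherwise the 1 with the smallest adjusted p) and the 6 genes most like the members; Kcnj8, Hif1a, Epas1 and Ppargc1a were added after their values were seen. The closest replicates of any group differed beyond sampling noise (chi-square over degrees of freedom 4.58 to 47.75 in 65 pairs), so none was merged. No batch is named in the labels beyond consecutive library numbers.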

Additional observations from a re-analysis of the deposited data

Results flagged for a closer look

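In 5 of the 50 sets of 1 member in 1 group that hold 4 to 10 libraries, 1 library stood far from the others; chance alone gives about 1 in 20. They were Eng in MIRKO 1 (71.9 CPM, highest), Flt1 in MIRKO 1 (86.1, lowest), Nos3 in MIGF1RKO 4 (12.4, highest), Tek in IGFRlox 3 (33.8, lowest) and Tie1 in MIGIRKO 2 (74.2, highest). Without MIGIRKO 2, Tie1 was called lower in MIGIRKO (adjusted p = 0.0138, edgeR).

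For 17 values on genes of the vascular lists, the change differed between 2 knockouts by the edgeR test of the difference. They were 11 of 90 genes (12.2%) for MIGIRKO less MIGF1RKO, against 8.58% of all tested genes, and 6 of 90 (6.67%) for QKO less MIGIRKO, against 5.76%, which is near the background. The change in MIGIRKO less that in MIGF1RKO was 0.83 for Cd34, 1.03 for Ramp2, -0.88 for Egln1, -0.95 for Esrra and 1.21 for Egln3. It was 1.19 for Acta2, -0.66 for Abcc9, 1.10 for Tagln, 1.98 for Lyve1, 1.30 for Prox1 and 1.21 for Reln. The change in QKO less that in MIGIRKO was 2.29 for Car9, 0.74 for Egln1, -1.33 for Egln3, -1.06 for Acta2, -1.26 for Tagln and -1.83 for Lyve1. No member of the 10 was among them.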

How the results depend on the processing

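On library totals without a scaling factor the MIGIRKO changes of Flt1 (0.15) and Vegfa (0.0094) turned positive, with 7002 genes called (6314 higher, 688 lower) in place of 4603 (2321 higher, 2282 lower). In MIRKO that scaling gave 279 calls (229 higher, 50 lower) in place of 170 (52 higher, 118 lower). In MIGIRKO, where 2 members were called, no filter, the compared groups only and leaving out the 2 libraries in doubt each gave 1, all 12 floxed libraries as control and library totals each gave 3, and leaving out 1 library gave 0 to 3. In MIRKO, where 0 were called, all 12 floxed libraries as control gave 2, at 2830 calls among all genes. DESeq2 gave 1 there and leaving out 1 library 0 to 1. QKO gave the same numbers of members: 2 with all 12 floxed libraries (1084 calls among all genes), 1 with DESeq2 and 0 to 1. For the difference between QKO and MIGIRKO library totals gave 2. Flt1 in MIGIRKO kept its call in 6 of 10 other settings and Vegfa in 8. Over all settings other than leaving out 1 library, the calls among all genes ran from 9 to 2830 in MIRKO, 66 to 244 in MIGF1RKO, 3793 to 7002 in MIGIRKO and 38 to 1084 in QKO. For the differences they ran from 0 to 460 (MIGIRKO and MIRKO), 668 to 2167 (MIGIRKO and MIGF1RKO) and 496 to 1404 (QKO and MIGIRKO), and among floxed groups from 19 to 163. No paired analysis was possible because neither replicate numbers nor littermate pairs are labelled. QKO rests on 2 Qlox libraries and Nos3 on 14 to 111 counts a library, and what size of change these could show was not measured.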
